A study of Macaca mulatta with 6 samples.

Results

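Mitochondrial ribosomal protein genes were followed in RF/6A cells exposed to normal or to heat-inactivated human serum. Members were all genes of the table whose symbol is MRPL or MRPS followed by a number, which gave 71 of 24932 genes, carried by 107 of 44605 transcripts. Of these, 43 were MRPL symbols, named for the large subunit, and 28 were MRPS symbols, named for the small subunit. The genes were selected on their symbols, but the set was chosen by earlier log2 changes between these same sera, so the counts and medians below describe the set and support nothing beyond it.

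RF/6A is a rhesus macaque line labelled as choroidal endothelial, grown on porous culture inserts in medium with fetal bovine serum. The controls (n = 3) received 50% heat-inactivated human serum and the treated cells (n = 3) received 50% normal human serum, which the study labels as the membrane attack complex condition. Each treatment lasted 4 hours. Both groups thus shared human serum at the same share of the medium, and no sample had complement blocked by other means, so complement and any other heat-sensitive serum factor cannot be told apart. The labels do not tell whether replicates came from different cultures, and p-values here rest only on library-to-library spread that could be technical.

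The mitochondrial ribosome translates the few membrane proteins encoded by the mitochondrial genome, all of them subunits of the respiratory chain and the ATP synthase. Its RNAs come from the mitochondrial genome, whereas every one of its proteins is encoded in the nucleus, made in the cytosol and imported. Some of its proteins belong to families shared with bacterial ribosomes, and the others exist only in mitochondria. The symbols were given before structures were known, and the proteins of MRPS18A and MRPS30 sit in the large subunit. MRPS36 is now regarded as a part of the oxoglutarate dehydrogenase complex instead of the ribosome.

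All samples were bulk RNA, in which fewer cells of a type and less RNA per cell cannot be told apart. Values are FPKM, fragments scaled for transcript length and library depth, summed over the transcripts of a symbol. The libraries held about 14700000 to 17900000 fragments as read from the value of a single fragment, which is approximate for the replicate 1 libraries, and 11589 to 11837 genes per library reached 1 FPKM. The replicate 1 libraries of both treatments stood apart from the other 4 on the second principal component of log2(FPKM + 1), which held 13.2% of the variance, against 61.1% for the component that separated the treatments. Of 11 endothelial markers in the table, PECAM1, ESAM, FLI1 and ENG had a mean of at least 1 FPKM over the 6 libraries, whereas CDH5, KDR, TEK, TIE1, CLDN5, ERG and VWF did not. CDH5 was listed at 0 in all control libraries, and VWF stood at 0.172 FPKM in the mean of the control and 1.05 FPKM in that of normal serum. In the same order of means, KDR went from 0.370 to 0.105 FPKM, TEK from 0.0930 to 0.0457 and TIE1 from 0.0177 to 0.0115. CLDN5 went from 0.233 to 0.255 FPKM, and ERG stood at 0.0994 in both sera. The 4 endothelial markers tested all rose (limma). The sum of the list was 73.8 to 75.8 FPKM in heat-inactivated serum and 97.9 to 104 FPKM in normal serum. In that sum ENG weighs most, with means of 61.2 and 74.2 FPKM. Of the 10 fibroblast and mural markers 8 fell and 2, CSPG4 and TAGLN, rose, and their sum, in which collagen genes weigh most, was 7753 to 8274 FPKM in heat-inactivated serum and 4477 to 4699 FPKM in normal serum. Of 3 epithelial markers in the table only CDH1 had a mean of at least 1 FPKM, and it fell by 1.11 on the log2 scale. The other epithelial markers went up in their means, KRT18 from 0.199 to 0.616 FPKM and KRT8 from 0.0172 to 0.0473 FPKM. The part of these marker shifts in the results below was not tested.

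Most members were higher in normal serum, by modest amounts. Of the 68 members with a mean of at least 1 FPKM, 44 rose, 1 fell and 23 did not pass the test (limma across all genes, Benjamini-Hochberg adjusted p under 0.05). Of all 11818 genes tested 54.0% were called, 27.8% higher and 26.1% lower. The median log2 change of the members on the log2(FPKM + 1) scale was 0.34, with the middle of the set between 0.18 and 0.51 (quartiles), against a median of 0.01 and quartiles of -0.32 and 0.31 over all genes tested. In replicates 2 and 3 alone 44 members rose and 2 fell, and 25.3% of all genes tested rose. With all 6 libraries as deposited, no member changed by 1 or more on the log2 scale, while 450 of all genes tested rose by as much. MRPS6 stood at 1.00 in replicates 2 and 3 alone and at 1.03 without heat-inactivated serum replicate 1. The rises that passed lay between 1.17-fold and 1.94-fold in mean FPKM, with a median of 1.36-fold.

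The counts depended on how libraries were scaled, and so did the background. The total of heat-inactivated serum replicate 3 was 1007949 FPKM, or 865897 FPKM without the short transcript MIR1282, which changed no other library's total. Rescaling to the same total FPKM, this transcript included, moved the median of all genes to -0.12 and the share of calls that were higher from 51.6% to 34.7%. It left 23 members higher and 3 lower, against 16.5% of all genes tested higher, and the member median at 0.20. Rescaling to the total of transcripts of at least 300 bases, which leaves out MIR1282, gave 31 higher and 2 lower with a median of 0.17. Of all genes tested 18.2% were then higher. Quantile normalization gave 29 higher and 2 lower with a member median of 0.17, and 24.3% of all genes tested were higher. The excess of the member median over that of all genes was 0.33 as deposited, 0.32 after rescaling and 0.19 after quantile normalization, and its sign did not turn under any scaling run. All members called higher after rescaling were among the 44, and 21 of the 44 passed in the same direction in each of the 20 alternatives, which varied scaling, filters, variance model, transcripts and libraries.

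**Figure D1:**
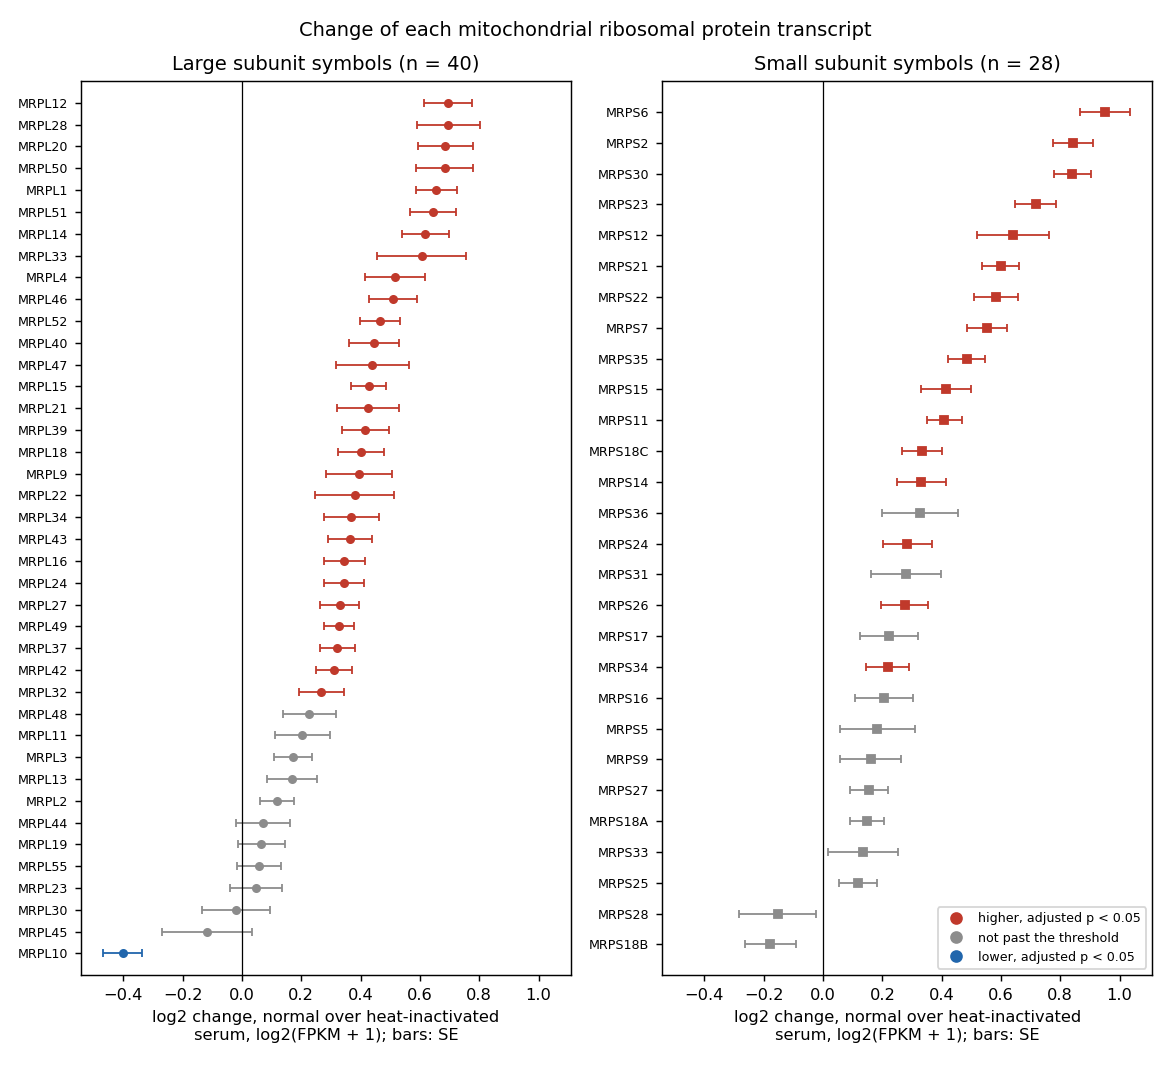
Log2 change (normal over heat-inactivated serum, log2(FPKM + 1)) with its standard error for each of the 40 large and 28 small subunit symbols tested. Red marks the 44 genes called higher, blue the 1 called lower (MRPL10) and grey the 23 not past the threshold.

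The largest rise was in MRPS6, a small subunit protein of a bacterial family. It stood at 100.3, 86.2 and 83.1 FPKM in the heat-inactivated serum libraries and at 181, 164 and 178 FPKM in normal serum. The groups did not overlap, and the rise was 1.94-fold in mean FPKM (log2 change 0.95 ± 0.08 SE, adjusted p = 1.11e-04, limma). MRPS2, also of a bacterial family, stood at 47.5, 50.1 and 46.0 FPKM in the control and at 91.9, 87.0 and 81.1 FPKM in normal serum. This was a 1.81-fold rise with separate groups (log2 change 0.84 ± 0.07 SE, adjusted p = 7.20e-05, limma).

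MRPS30, a large subunit protein despite its symbol and without a bacterial relative among ribosomal proteins, went from 22.9, 21.01 and 22.97 FPKM to 41.2, 41.4 and 39.4 FPKM. Its groups were far apart, and the rise was 1.83-fold (log2 change 0.84 ± 0.06 SE, adjusted p = 5.28e-05, limma). MRPS23, a mitochondrial small subunit protein, went from 63.9, 69.3 and 68.7 FPKM to 104, 120 and 110 FPKM, again without overlap (adjusted p = 1.80e-04, limma). MRPS12, the relative of the bacterial protein at the decoding centre, stood at 60.0, 50.6 and 48.2 FPKM in the control and at 94.1, 84.5 and 70.9 FPKM in normal serum. Normal serum replicate 3 was the lowest of the treated libraries for MRPS12 but lay above every control library (adjusted p = 0.00352, limma).

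Among the MRPL symbols the 4 largest rises were nearly equal in size, with log2 changes between 0.68 and 0.70. MRPL12, the stalk protein that also binds the mitochondrial RNA polymerase, stood at 107.7, 117 and 127 FPKM in the control and at 185, 206 and 181 FPKM in normal serum. That rise was 1.62-fold with separate groups (log2 change 0.70 ± 0.08 SE, adjusted p = 3.76e-04, limma). MRPL28 went from 21.7, 29.1 and 26.6 FPKM to 43.9, 42.4 and 40.3 FPKM. MRPL20 went from 58.0, 59.5 and 71.4 FPKM to 108, 103 and 94.3 FPKM. Both belong to bacterial families, and in neither did a control library reach a treated one. MRPL50, a protein found only in mitochondria, stood at 21.1, 19.7 and 17.7 FPKM in the control and at 34.2, 33.5 and 28.2 FPKM in normal serum, where the groups were also apart (adjusted p = 9.27e-04, limma).

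MRPL10 was the only member that fell. This gene encodes the base of the stalk on which the copies of the MRPL12 protein are mounted. It stood at 58.0, 56.3 and 63.2 FPKM in heat-inactivated serum and at 45.4, 45.4 and 42.7 FPKM in normal serum. The groups did not overlap, and the log2 change was -0.40 ± 0.07 (SE, adjusted p = 0.00179, limma). MRPL10 was called lower in each of the 20 alternatives, as MRPL12 was called higher. MRPL11, the other protein at the base of the stalk and named after its values were seen, stood at 113, 136 and 124 FPKM in the control and at 130, 155 and 146 FPKM in normal serum. Its groups overlapped and it did not pass (log2 change 0.20, adjusted p = 0.0987, limma), although each normal serum library lay above the control library of the same number. It was called higher with the replicate number as a block (adjusted p = 0.0135), with a replicate 1 term (adjusted p = 0.0158) and without normal serum replicate 1 (adjusted p = 0.0432), and its change was -0.0073 after quantile normalization. In the same libraries MRPL12 thus rose and MRPL10 fell.

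The 3 MRPS18 genes encode related proteins, of which the ribosome holds all: MRPS18B and MRPS18C in the small subunit and MRPS18A in the large subunit. MRPS18C rose from 24.3, 22.7 and 23.5 FPKM to 28.6, 32.0 and 29.1 FPKM, with separate groups (log2 change 0.33, adjusted p = 0.00458, limma). Once libraries were rescaled to an equal total, MRPS18C no longer passed (adjusted p = 0.148). MRPS18A stood at 32.5, 31.8 and 31.9 FPKM in the control and at 34.7, 37.3 and 35.1 FPKM in normal serum. Its groups were apart, yet it did not pass (log2 change 0.15, adjusted p = 0.0621, limma), but it passed when the fit held a replicate 1 term (adjusted p = 0.0435). Its change was -0.02 after rescaling to the total of transcripts of at least 300 bases. MRPS18B stood at 59.5, 49.8 and 52.9 FPKM in the control and at 48.8, 50.4 and 43.7 FPKM in normal serum. Its groups overlapped and it did not pass (log2 change -0.18, adjusted p = 0.119, limma), but it was called lower after rescaling to the same total (adjusted p = 0.0445) and after quantile normalization (adjusted p = 0.0147). The differences between the 3 genes were not tested.

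FPKM is scaled for length, so levels can be set side by side between genes. In mean FPKM over all libraries the members ranged from 14.8 (MRPL44) to 400.1 (MRPL33) in the large subunit, with a median of 53.0, and from 18.7 (MRPS31) to 278 (MRPS21) in the small subunit, with a median of 48.3. MRPL33 was listed with a transcript of 198 bases and MRPS21 with 264 bases. The length offset in the FPKM scaling was estimated here from the values of single fragments and is not stated by the authors. It was 185 to 189 bases in the replicate 2 and 3 libraries. The replicate 1 libraries, where the estimate is approximate, gave 278 (heat-inactivated) and 245 (normal serum). The levels of MRPL33 and MRPS21 are thus less certain than those of longer genes. MRPL33 stood at 356, 348 and 251 FPKM in the control and at 530, 499.8 and 416 FPKM in normal serum, with heat-inactivated serum replicate 3 well below the other controls. It rose (log2 change 0.61, adjusted p = 0.0114, limma), but it no longer passed when libraries were rescaled to an equal total (adjusted p = 0.0608), were quantile normalized (adjusted p = 0.0640) or had their length trend taken out (adjusted p = 0.0540). MRPS21 went from 218, 211 and 235 FPKM to 343, 343 and 320.4 FPKM (adjusted p = 2.51e-04, limma).

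The next in level of each subunit were MRPL51 and MRPS16. MRPL51, a large subunit protein found in mitochondria, went from 146, 158 and 157 FPKM to 241, 263 and 220 FPKM without overlap (adjusted p = 4.47e-04, limma). MRPS16 stood at 144, 122 and 124 FPKM in the control and at 168, 146 and 136 FPKM in normal serum, and its groups overlapped. It did not pass (log2 change 0.21, adjusted p = 0.111, limma), its change was -0.03 after quantile normalization, and it passed when the fit held a replicate 1 term (adjusted p = 0.00812), with the replicate number as a block (adjusted p = 0.0178), in replicates 2 and 3 alone (adjusted p = 0.0491) and without heat-inactivated serum replicate 1 (adjusted p = 0.0481).

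The 23 members that did not pass had log2 changes from -0.18 to 0.33, of which 19 were above 0. Among them, and named after their values were seen, MRPL44, a mitochondrial protein related to ribonuclease III, stood at 13.0, 15.8 and 14.5 FPKM in the control and at 14.05, 16.3 and 15.2 FPKM in normal serum (adjusted p = 0.533, limma). MRPL23, a protein near the exit of the peptide tunnel, stood at 140 ± 12.1 and 145 ± 12.7 FPKM (SD, n = 3 per treatment, adjusted p = 0.678, limma across all genes). MRPS36 had a log2 change of 0.33 with overlapping groups (adjusted p = 0.0625, limma). A gene that missed the threshold is not thereby shown to be the same in both sera. MRPL17 and MRPL36 were listed at 0 in all libraries and MRPL35 in 5 of them, and these 3 were not tested.

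**Figure D2:**
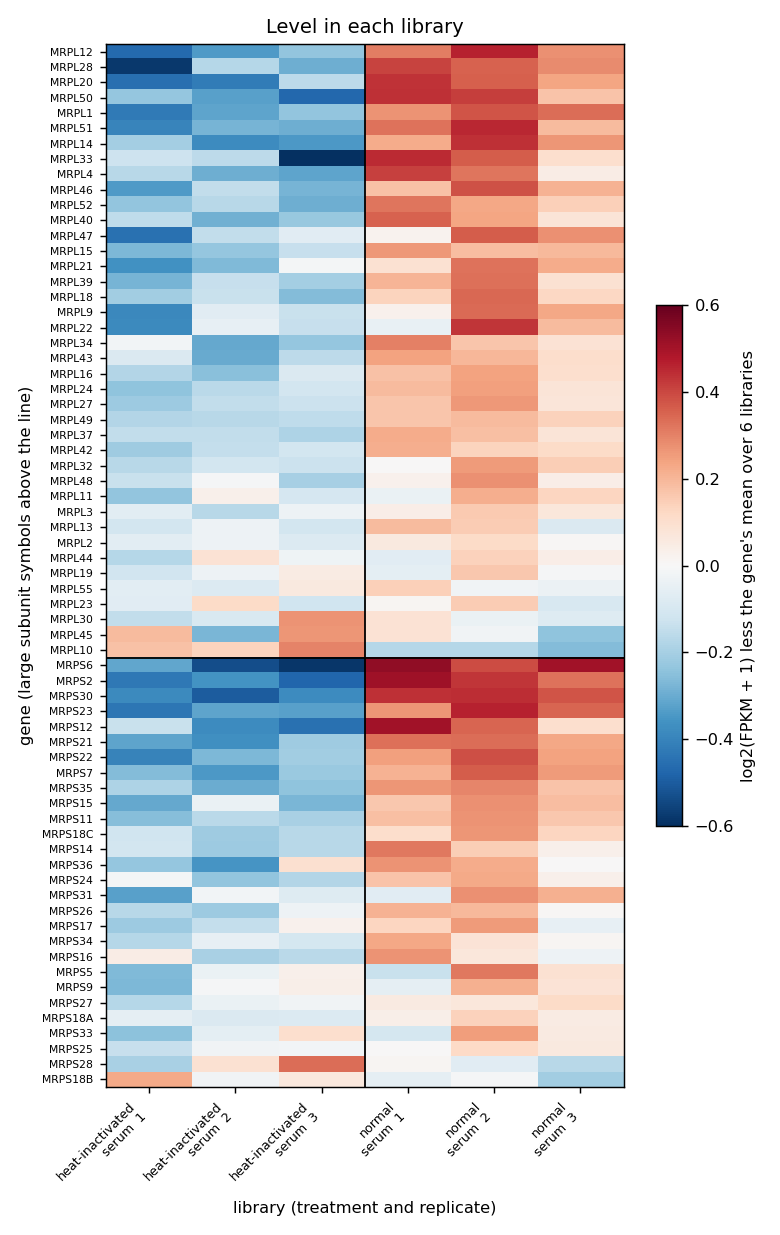
Level of each of the 68 tested genes in each of the 6 libraries, as log2(FPKM + 1) less the mean of that gene over the libraries (colour scale). Large subunit symbols are above the horizontal line and the vertical line divides the treatments; the normal serum columns are mostly red, with replicate 2 holding the highest value of 40 genes and replicate 3 that of 1.

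Libraries of a treatment differed among themselves. Normal serum replicate 2 held the highest value of 40 of the 68 members, replicate 1 that of 22 and replicate 3 that of 1. Heat-inactivated serum replicate 1 held the lowest value of 35 members. The groups did not overlap in 50 members that were higher and in 1 that was lower. Of all genes tested, 32.1% did not overlap with normal serum higher and 30.5% with normal serum lower. A log2 change above 0 was found in 63 members, against 51.0% of all genes tested. The median coefficient of variation of a member over the libraries of a treatment was 6.58% in heat-inactivated serum and 7.24% in normal serum. About 522 fragments lay behind the median member with a transcript of more than 300 bases in a library, and about 60.1 behind the lowest, MRPS36.

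Large and small subunit genes were compared by name. Of the 40 large subunit symbols tested 28 rose and 1 fell, with a median log2 change of 0.37. Of the 28 small subunit symbols 16 rose and 0 fell, with a median of 0.31 (limma at adjusted p under 0.05 in both; at an unadjusted p under 0.05 the small subunit had 0 lower). The difference of the medians, large less small, was 0.06. It was 0.0063 without heat-inactivated serum replicate 1, 0.0095 after quantile normalization, 0.0398 without normal serum replicate 3, 0.0912 in replicates 2 and 3 alone and 0.10 with the length trend removed. With MRPS18A and MRPS30 counted in the large subunit, where their proteins sit, it was also 0.06. The sums gave the other order. Summed FPKM of large subunit symbols went from 2690 ± 24.97 to 3528 ± 204 (SD, n = 3 per treatment), a ratio of 1.31, and that of small subunit symbols from 1540 ± 34.2 to 2068 ± 85.3, a ratio of 1.34. The large over small ratio of the sums was 1.74, 1.80 and 1.70 in the control libraries and 1.69, 1.74 and 1.68 in normal serum, so the groups overlapped.

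**Figure D3:**
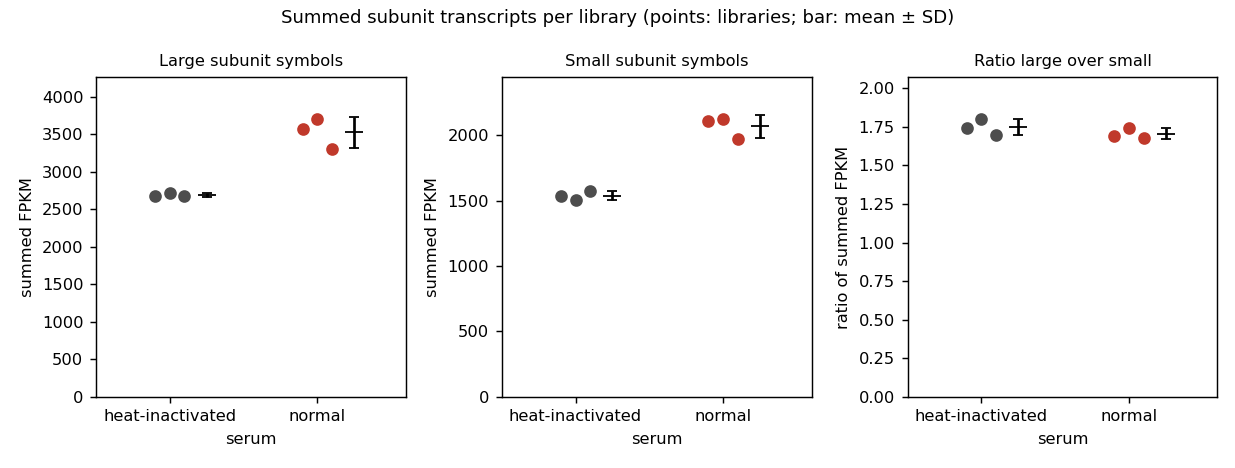
Summed FPKM of the large and of the small subunit symbols, and their ratio, in each library (points), with the mean and SD of each treatment (bar, n = 3). Both sums were higher in every normal serum library, while the ratios of the treatments overlapped.

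A split by origin of the protein family, which the choice of members did not use, gave similar medians. Members with numbers up to 36 in the large subunit and up to 21 in the small subunit take their numbers from bacterial ribosomal proteins, and higher numbers mark proteins found in mitochondria. Of the large subunit genes, 17 of 25 with a bacterial number and 11 of 15 with a higher number rose, with medians of 0.37 and 0.37. Of the small subunit genes, 9 of 15 and 7 of 13 rose, with medians of 0.33 and 0.28. The tested members lay on 19 chromosomes of the authors' table, with at most 8 on any of them. In the RefSeq table (assembly T2T-MMU8v2.0) MRPL46 and MRPS11 are direct neighbours. MRPL46 went from 36.4, 41.7 and 37.9 FPKM to 52.3, 60.7 and 53.6 FPKM, and MRPS11 from 44.6, 47.7 and 46.6 FPKM to 60.7, 64.8 and 60.0 FPKM. Both were thus apart between treatments, and normal serum replicate 2 was the highest library for each.

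Member transcripts are short, so change was set against transcript length. The most abundant transcript of a tested member had a median of 810.5 bases, against 1812 bases over all genes tested. Across the 68 members the rank correlation (Spearman's rho) of log2 change with length was -0.00086, and it was -0.18 over the large and 0.20 over the small subunit symbols, against -0.10 over all genes tested; genes within a library share its depth and are not independent. All genes were divided into 4 length classes of about equal gene number. In the shortest class (101 to 1059 bases) the median change of all genes was 0.08, and that of the 47 members in it 0.33. In the next class (1060 to 1812 bases) the medians were 0.02 for all genes and 0.37 for the 20 members in it. With the trend of change with length removed from every library, 38 members were higher and 1 lower, and the member median was 0.30 against 0.01 for all genes. Of all genes tested 27.8% were then higher.

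Change was also set against level. The rank correlation of mean FPKM with log2 change was 0.28 over all genes tested and 0.25 over the members. Of the members, 53 lay in the highest of 4 level classes of about equal gene number (35.95 FPKM and more in the mean). In that class 45.4% of all genes rose and their median log2 change was 0.18, and 39 of the 53 members rose with a median of 0.37. In the class below (13.9 to 35.9 FPKM) 32.3% of all genes rose with a median of 0.06, and 5 of 15 members rose with a median of 0.18. The part of level in the members' changes was not tested.

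**Figure D4:**
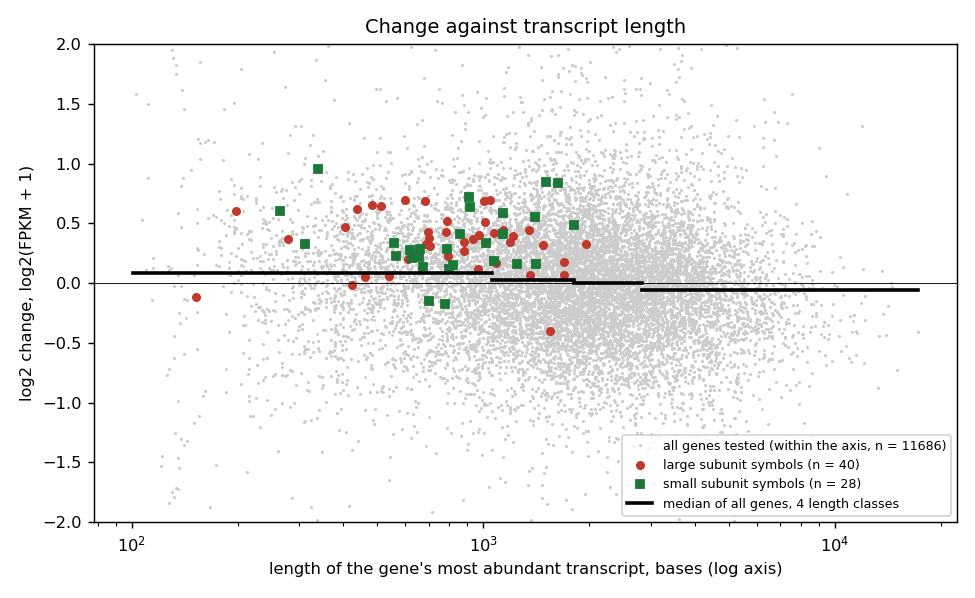
Log2 change of each gene against the length of its most abundant transcript (log axis), for all genes tested whose change lies within the axis (grey), large subunit symbols (red) and small subunit symbols (green). Black lines give the median of all genes in each length class, from 0.08 in the shortest to -0.06 in the longest; most members lie above them.

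Some genes depended on how fragments were shared between transcripts. MRPL22, a protein of the peptide exit tunnel that was named after its values were seen, has 2 listed transcripts of 700 and 717 bases. The first stood at 4.19, 51.7 and 39.2 FPKM in the control and at 0.00148, 54.8 and 49.8 FPKM in normal serum, and the other at 42.3, 7.12 and 15.9 and at 58.9, 27.3 and 19.7 FPKM. The replicate 1 libraries of both treatments thus gave nearly all fragments to the longer transcript. Their sum rose (log2 change 0.38, adjusted p = 0.0447, limma), but it passed in only 9 of the 20 alternatives. It did not pass after either rescaling (adjusted p = 0.176 and 0.210) or after quantile normalization (adjusted p = 0.228). Leaving out replicate 1 or 3 of heat-inactivated serum, or replicate 2 or 3 of normal serum, also ended the call (adjusted p from 0.0790 to 0.124). The change of the higher transcript alone was -0.65 and did not pass (adjusted p = 0.766). MRPL45, which helps hold the ribosome at the inner membrane and was likewise named after its values were seen, was listed with a transcript of 152 bases on chromosome 16 and another of 402 bases on chromosome 13, so its sum of 128 ± 24.5 and 117 ± 13.3 FPKM (SD, n = 3 per treatment) may combine different copies.

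The authors' deposited table tests each transcript on its own. Of 84 member transcripts with a test status of OK there, 43 had a q-value under 0.05 with a positive log2 fold change and 1, of MRPL10, with a negative fold change. Of all 17230 transcripts with that status, 3548 were higher and 3530 lower at the same q-value. None of the 107 member transcripts in the authors' deposited table carried all of the authors' marks of passing, which include a minimum fold change. Of all 44605 transcripts 1143 carried them, so these marks were uncommon throughout.

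Subunit proteins whose symbols do not begin with MRPL or MRPS were set beside the members. Of 6 tested, 3 rose and 0 fell (limma; 0 lower at an unadjusted p under 0.05 too), with a median log2 change of 0.17. After rescaling to the same total FPKM and after quantile normalization 1 of them, ICT1, was higher. Their medians were then 0.03 and 0.02, against -0.12 and -0.02 over all genes tested. ICT1, a peptide-release factor built into the large subunit, went from 36.5, 46.5 and 45.9 FPKM to 57.7, 71.9 and 62.4 FPKM. The groups were apart (log2 change 0.57, adjusted p = 0.00514, limma). PTCD3 of the small subunit went from 32.1, 33.3 and 32.6 FPKM to 38.02, 38.06 and 37.95 FPKM (adjusted p = 0.0116, limma), and did not pass once libraries were rescaled to an equal total (adjusted p = 0.561) or quantile normalized (adjusted p = 0.265). A gene without a symbol that the table describes as protein L14 of this ribosome stood at 5.45, 4.47 and 5.20 FPKM in the control and at 5.27, 7.66 and 8.31 FPKM in normal serum, with overlapping groups (adjusted p = 0.0600, limma). Another described as protein S10 stood at 11.7 and 13.0 FPKM in the mean of each group (adjusted p = 0.356, limma).

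Among genes that build the ribosome more rose than fell as deposited. Of 25 assembly and rRNA modification genes tested 12 rose (48%) and 2 fell (8%), against 27.8% and 26.1% of all genes tested. Their median log2 change was 0.23. It was 0.09 after rescaling to the same total FPKM, with 5 higher and 2 lower. Quantile normalization gave 0.20, with 10 higher and 3 lower. Rescaling to the total of transcripts of at least 300 bases gave 0.06, with 5 higher and 5 lower. DHX30, a helicase of ribosome assembly, rose from 54.8 ± 1.77 to 83.1 ± 0.977 FPKM and MALSU1, a silencing factor that binds the large subunit, from 31.7 ± 2.08 to 53.9 ± 5.88 FPKM (SD, n = 3 per treatment, adjusted p = 1.27e-04 and 5.31e-04, limma). The factors that work with the finished ribosome did not share the members' direction in their median. Of 16 translation factors 5 rose (31.25%) and 4 fell (25%), with a median of -0.11. These shares lay near those of all genes tested, 27.8% higher and 26.1% lower. After rescaling to the same total FPKM 1 was higher and 5 were lower, with a median of -0.25. The median of all genes was then -0.12, and 16.5% of them were higher. TSFM, the exchange factor of the mitochondrial elongation factor, rose from 40.6 ± 1.02 to 57.5 ± 3.42 FPKM, and MRRF, the ribosome recycling factor, fell from 24.1 ± 2.00 to 14.1 ± 2.11 FPKM (adjusted p = 6.37e-04 and 0.00128, limma). Of 17 mitochondrial aminoacyl-tRNA synthetase genes, whose enzymes charge the tRNAs, 2 rose and 3 fell. Their median was 0.03 as deposited, -0.10 after rescaling to the same total FPKM and 0.02 after quantile normalization. That of all genes tested was 0.01, -0.12 and -0.02 in the same order. MARS2, for methionine, rose from 4.64 ± 0.513 to 9.06 ± 1.18 FPKM (SD, n = 3 per treatment, adjusted p = 7.20e-04, limma).

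Genes of mitochondrial transcription and RNA processing (9 of 17 higher, 0 lower by limma, median 0.35) and of protein import (14 of 20 higher, 0 lower by limma, median 0.58) had medians above 0 under each scaling run. At an unadjusted p under 0.05 the first list had 2 lower and the import list 0. The first list had 6 higher and 2 lower after rescaling and 9 higher and 2 lower after quantile normalization. TFAM, a factor that packages and transcribes mitochondrial DNA and was picked out with its values known, was not called as deposited (log2 change -0.20, adjusted p = 0.0540, limma) and was lower after both (adjusted p = 0.0168 and 0.00833). SUPV3L1, an RNA helicase of the mitochondrial matrix, rose by 0.71 on the log2 scale and ELAC2, which trims tRNA ends, by 0.60 (adjusted p = 2.24e-04 and 3.71e-04, limma). GRPEL1, a cofactor of the import motor, went from 24.8, 26.5 and 27.6 FPKM to 61.7, 64.8 and 62.6 FPKM. TOMM40, the pore of the outer membrane, went from 65.7, 72.4 and 68.8 FPKM to 169, 169 and 152 FPKM. These import genes were apart between treatments and rose by 1.23 each on the log2 scale, more than any member (adjusted p = 1.01e-05 and 1.41e-05, limma). Of 8 regulators of mitochondrial gene expression 4 rose and 2 fell. GABPB1, a subunit of a factor that acts on many nuclear genes for mitochondria, rose from 11.9 ± 0.877 to 27.4 ± 0.468 FPKM, and MYC from 119 ± 3.79 to 191 ± 8.19 FPKM (adjusted p = 2.39e-05 and 1.04e-04, limma). GABPA, the DNA-binding partner of GABPB1, was picked out with its values known. It fell by 0.53 on the log2 scale (adjusted p = 0.00101, limma).

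Transcripts of the mitochondrial genome, whose mRNAs this ribosome translates, were also measured. Of 13 named transcripts of the mitochondrial genome 8 rose and 0 fell (limma; 0 lower at an unadjusted p under 0.05 too), with a median log2 change of 0.47, and 3 rose after rescaling to the same total FPKM. ND3, a subunit of respiratory complex I, went from 2535, 2498 and 1954 FPKM to 5355, 4147 and 3966 FPKM, and ATP8 of the ATP synthase from 9673, 9411 and 7585 FPKM to 15266, 12398 and 12888 FPKM. Their groups were apart (adjusted p = 0.00130 and 0.00430, limma). The 2 tested transcripts of that genome without a symbol were ENSMMUG00000028701 (1558 bases) and ENSMMUG00000028703 (947 bases). They had log2 changes of -0.13 and -0.35 (adjusted p = 0.299 and 0.0132, limma). Nuclear respiratory chain genes had 35 of 59 higher and 1 lower, with a median of 0.26. After rescaling to an equal total 12 of the 59 were higher and 3 lower, with a median of 0.12. Quantile normalization gave 10 higher and 8 lower, with a median of 0.06. Of all genes tested 27.8% were higher as deposited, 16.5% after that rescaling and 24.3% after quantile normalization. ATP5F1B and NDUFA9 rose by 0.53 and 0.49 on the log2 scale (adjusted p = 1.87e-04 and 5.83e-04, limma). Cytosolic ribosomal protein genes had 9 of 63 higher and 0 lower (limma; 1 lower at an unadjusted p under 0.05), with a median of 0.06 that was -0.08 after rescaling and -0.10 after quantile normalization, where 15 were lower. The median of all genes tested moved as well, from 0.01 as deposited to -0.12 after that rescaling and -0.02 after quantile normalization. RPS27L and RPL26L1, variant copies of ribosomal protein genes, had the smallest adjusted p of the cytosolic list (6.86e-04 and 0.00180, limma) and rose by 0.54 and 0.53. The differences between these lists and the members were not tested.

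**Figure D5:**
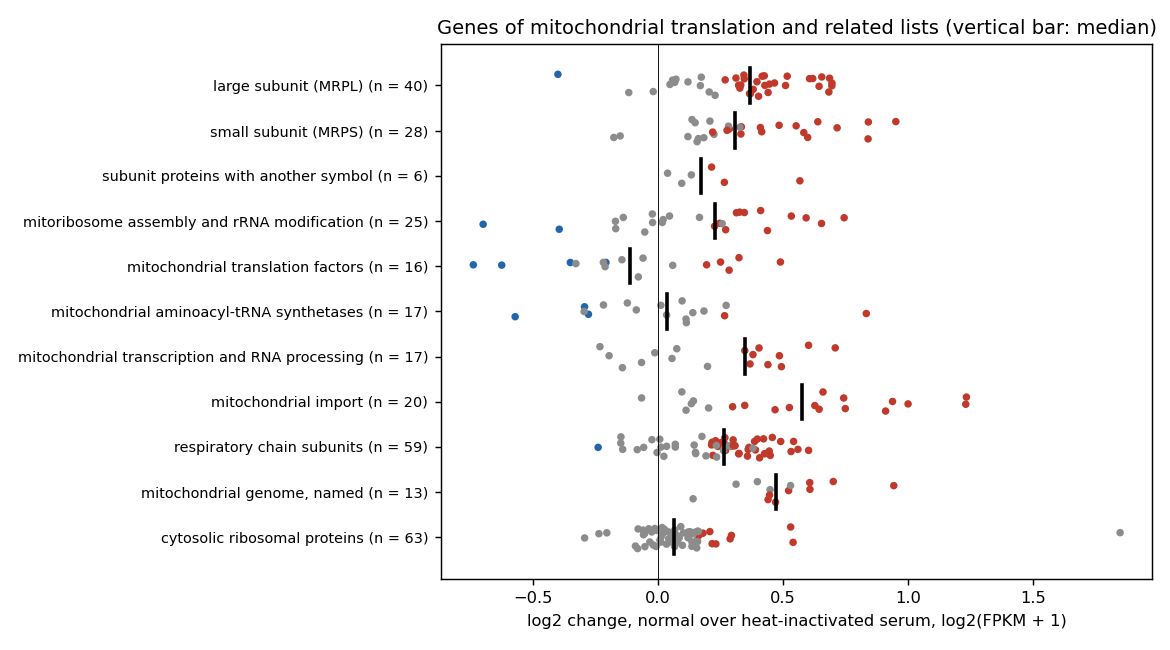
Log2 change of each tested gene in the subunit sets and in related lists, with the median of each list as a vertical bar. Red points were called higher, blue points lower and grey points neither; medians run from -0.11 in the translation factors to 0.58 in the import genes, and from 0.31 to 0.37 in the subunit sets.

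Genes outside the set followed the members' mean closely over the 6 libraries. The mean of the members, each standardized over the libraries, was -0.87, -0.66 and -0.49 in heat-inactivated serum replicates 1 to 3 and 0.65, 1.02 and 0.36 in normal serum. The highest Pearson correlations with it, all 0.997 or more over 6 libraries, were those of CCDC149, a coiled-coil protein gene, COPS6 of the COP9 signalosome, ILK, an integrin-linked kinase, PCNA, the sliding clamp of DNA replication, and ATF4, a transcription factor of the stress response. PCNA stood at 145, 159 and 163 FPKM in the control and at 220, 239 and 199.7 FPKM in normal serum. Like the members' mean, PCNA was highest in normal serum replicate 2 and lowest in heat-inactivated serum replicate 1. These genes were the closest of 11750 searched, with values as deposited, and the correlations were not computed under other scalings. After rescaling to the same total FPKM, PCNA still rose (log2 change 0.35, adjusted p = 0.0124, limma). CCDC149, COPS6, ILK and ATF4 did not pass, with log2 changes of 0.24, 0.21, 0.03 and 0.04. After quantile normalization CCDC149 and PCNA passed (adjusted p = 0.00429 and 0.00841, limma), whereas COPS6, ILK and ATF4 did not.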

How the data were processed

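Poly(A) RNA of 6 RF/6A samples was sequenced from TruSeq libraries, per the labels' protocols. TopHat2 2.0.7, Cufflinks 2.1.1 and Cuffdiff 2.1.1 are named in the submitters' processing notes, without a role for each. The genome build used is not given in the labels or the table. Values were deposited as FPKM per transcript and library, beside the length of each transcript in bases. For each transcript the authors' q-value, p-value and log2 fold change are also deposited.

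FPKM was summed over the transcripts of a symbol. Of 7008 identifiers without a symbol, 256 were given one from a name table. Since FPKM are not counts, log2(FPKM + 1) was tested with limma 3.58.1 (R 4.3.3; trended empirical Bayes, no covariates, all 6 libraries) over genes that averaged 1 FPKM or more, with Benjamini-Hochberg adjustment over all genes and a call at 0.05. Log2 changes are on that scale and understate changes of low genes, and fold is the ratio of mean FPKM. The script was tested on simulated data. Alternatives varied the pseudocount, filter, scaling, variance model, transcripts, length trend, replicate terms and libraries.

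Members and gene lists were chosen with earlier results of these data known. The genes named were the 8 members with the largest rise and up to 8 with the largest fall among those called, the 2 highest in level per subunit, MRPS18A, MRPS18B, MRPS18C, MRPS30, MRPL12 and MRPS12. Of each list the 2 genes with the smallest adjusted p were named, except 1 that is not reported here, as were the 5 other genes most correlated with the members' mean.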

Additional observations from a re-analysis of the deposited data

How the results depend on the processing

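Scaling moved the counts most. Rescaling to the same total FPKM gave 23 members higher, 3 lower and a median log2 change of 0.20, and quantile normalization gave 29, 2 and 0.17, with a large less small difference of 0.0095. Rescaling to the total of transcripts of at least 300 bases, chosen after seeing the data, gave 31 higher, 2 lower and a median of 0.17, and 33.0% of all calls were then higher, against 47.2% after quantile normalization. MRPS16 turned to -0.0282 after quantile normalization and MRPS18A to -0.0196 after the rescaling to longer transcripts. With the length trend removed the large less small difference was 0.10, and in replicates 2 and 3 alone it was 0.0912 with 2 members lower. The cause was not tested. Leaving out 1 library at a time gave 37 to 43 members higher, 1 to 2 lower, a median of 0.31 to 0.38, a large less small difference of 0.0063 to 0.0685 and 5455 to 5872 genes called. In these fits 23.6% to 26.0% of all genes tested were higher. Same-numbered libraries correlated in their deviations from the group means by 0.19, 0.03 and 0.0059 over all genes, so the numbers were not taken as pairs, and over the members by 0.59, 0.39 and 0.26, where normal serum replicate 3 correlated more with heat-inactivated serum replicate 2 (0.36). With the replicate number as a block 48 members were higher and 1 lower, and 6775 genes were called, with 29.8% of all genes tested higher. A fit that set the replicate 1 libraries apart gave 51 members higher, 1 lower and 7063 genes called, with 31.2% of all genes tested higher. Of the 17 named members, 11 kept direction and call in all 20 alternatives, and MRPS21 in the 19 in which it was tested. Depth limits the least covered members, and levels of transcripts under 300 bases are uncertain.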
